A study of Mus musculus with 6 samples.

Results

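The Th2 cytokine locus holds the cytokine genes Il4, Il5 and Il13, and its near neighbours include Rad50, which lies between Il13 and Il5, and Kif3a, which lies next to Il4. These 5 genes, of 18194 genes measured, were chosen by their position, and every probe set naming one of them alone was read. There were 9 such probe sets, 1 each for Il4, Il5 and Il13, 2 for Rad50 and 4 for Kif3a. In the gene order of the RefSeq mouse table (GRCm38.p6) the 5 genes follow each other on chromosome 11 as Kif3a, Il4, Il13, Rad50 and Il5, with no other protein-coding gene of that table among them.

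RNA came from splenic CD4 T cells of C57BL/6 mice aged 6 to 8 weeks, cultured under Th2 conditions and read on 6 Affymetrix mouse arrays. Th2-1st cells were effector Th2 cells after 5 days of culture with anti-TCR and anti-CD28 mAbs, IL-4 at 100 U/ml and IL-2 at 25 U/ml. Th2-4th cells had gone through further cycles, each with a rest without added cytokine followed by anti-TCR mAb, IL-2 and an anti-IL-4 mAb, and are called fully developed Th2 cells. All cells of both cultures were transfected, either with control siRNA or with GATA3 siRNA, and collected after 24 h. Either culture gave 3 arrays, of control siRNA cells left without restimulation, of control siRNA cells kept for 4 h on immobilized anti-TCR mAb, and of GATA3 siRNA cells kept likewise for 4 h. No GATA3 siRNA cells without restimulation are among them. The 2 cultures also differ in the IL-4 they met, since Th2-1st cells grew with added IL-4 and Th2-4th cells with IL-4 blocked, so that culture age and IL-4 cannot be told apart. Gata3 RNA was lowered and not removed, and the same siRNA pair served both cultures.

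Th2 cells are the helper T cells that make IL-4, IL-5 and IL-13. IL-4 drives Th2 differentiation and class switching to IgE, IL-5 drives the growth and survival of eosinophils, and IL-13 acts on epithelium and smooth muscle in the airway and gut. The 3 genes are opened together during Th2 differentiation under GATA3, are transcribed when the T cell receptor is engaged, and share control elements, among them a locus control region that lies within Rad50.

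The arrays give 1 signal per probe set on a linear scale. A ratio over 2-fold or under 0.5-fold counts here as a change. Within a culture each condition had 1 array and no replicate, so each log2 ratio is set beside a spread, the robust SD of that ratio over genes with similar signals on the same pair of arrays. That spread holds real changes of other genes and is no replicate error. The test used here takes both cultures together, in a limma fit over all 18194 genes with the culture as a block. It has 2 residual degrees of freedom, assumes that a condition acts alike in both cultures and takes any difference between them as error. A gene is called bright in a comparison when its signal was at least 500 on 1 of the 2 arrays. Array medians ran from 61.8 to 74.2, and a signal below them has little meaning as a level. Rad50 and Kif3a were read by their brightest probe set (mean log2 signal over the 6 arrays). Signals of different probe sets cannot be ranked against each other, so levels are compared only within a gene.

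Of 7 marker genes of CD4 T cells, 6 were measured, and all 6 lay above the array median on every array. Of 5 Th2 markers, 4 were measured, and all 4 lay above the median on the control arrays and 3 with GATA3 siRNA. Gata3 itself, the target of the siRNA, read 3312, 4883 and 1798 in unstimulated, stimulated and GATA3 siRNA stimulated Th2-1st cells, and 4846, 9261 and 2853 in the Th2-4th cells. GATA3 siRNA thus left 36.8% of the control Gata3 signal in Th2-1st cells and 30.8% in the Th2-4th cells. Other cells that make these cytokines are mast cells, basophils and eosinophils. Of their 11 markers, 1 to 3 lay above the median of an array and their summed signal ran from 703 to 3142. The receptor chain genes Fcer1a, Ms4a2 and Kit stayed at 51.3 or less on all arrays. Cpa3, a mast cell protease gene, read 255 and 67.7 with control and GATA3 siRNA in stimulated Th2-1st cells and 320.2 and 44.9 in the Th2-4th cells. Mcpt8, a basophil protease gene, read 873 and 171 in stimulated Th2-4th cells and 7.63 or less in Th2-1st cells. Siglecf, an eosinophil receptor gene, read 8.40 and 691 without and with anti-TCR mAb in Th2-1st control cells and 41.3 and 1831 in Th2-4th control cells. Cpa3 in both cultures and Mcpt8 in Th2-4th cells were thus lower with GATA3 siRNA where Il5 was lower too, and Siglecf was higher after stimulation. Cpa3 fell with anti-TCR mAb in Th2-1st control cells, from 562 to 255 (log2 ratio -1.14), where Il5 rose. With anti-TCR mAb 4 of the 11 genes were over 2-fold and 4 under 0.5-fold in Th2-1st cells, and 5 and 2 in the Th2-4th cells. Among all genes 17.5% were then over and 16.9% under in Th2-1st cells, and 18.7% and 21.6% in the Th2-4th cells. With GATA3 siRNA Siglecf read 1097 and 2106. Of the whole list of 11 genes, 2 were over 2-fold and 1 under 0.5-fold with GATA3 siRNA in Th2-1st cells (median log2 ratio -0.21, all genes 0.05), and 6 and 2 in the Th2-4th cells (median 1.04, all genes 0.01). The shares of all genes were 13.3% over and 7.49% under in Th2-1st cells, and 10.6% each way in the Th2-4th cells. The summed signal of the list went from 1086 to 1327 and from 3142 to 2573. The part of such cells in the cytokine signals was not tested. The summed signal of 4 measured B cell markers ran from 168 to 6084, that of 6 myeloid markers from 326 to 560.4, and that of 4 markers of CD8 T, NK and NKT cells from 336 to 745. In bulk RNA, fewer cells that make a cytokine and less RNA per cell cannot be told apart.

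The DNA just before the start of the cytokine genes is shown because these 3 promoters belong to the genes whose signals moved with anti-TCR mAb. Each run is the 250 bases before the RefSeq start, 5′ to 3′ on the gene's own strand, from the RefSeq promoter table of build GRCm38.p6. Capitals mark matches, on either strand, to the letters that GATA factors read, either AGATAA or the variant AGATAG, either TGATAA or the variant TGATAG, and to GGAAA, the core that NFAT factors read (TTTCC on the other strand). Il5 lies on the plus strand at chr11:53720544-53720793, Il13 on the minus strand at chr11:53634703-53634952, and Il4 on the minus strand at chr11:53618666-53618915.
Il5: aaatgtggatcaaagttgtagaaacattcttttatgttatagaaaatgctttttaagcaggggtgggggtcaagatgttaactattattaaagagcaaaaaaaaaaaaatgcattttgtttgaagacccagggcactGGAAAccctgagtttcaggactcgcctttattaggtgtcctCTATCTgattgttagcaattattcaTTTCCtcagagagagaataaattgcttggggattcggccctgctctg
Il13: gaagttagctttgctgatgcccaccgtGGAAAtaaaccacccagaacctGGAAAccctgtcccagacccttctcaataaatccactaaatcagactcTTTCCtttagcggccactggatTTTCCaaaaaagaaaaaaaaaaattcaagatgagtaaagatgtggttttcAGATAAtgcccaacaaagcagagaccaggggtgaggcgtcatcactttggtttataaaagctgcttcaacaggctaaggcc
Il4: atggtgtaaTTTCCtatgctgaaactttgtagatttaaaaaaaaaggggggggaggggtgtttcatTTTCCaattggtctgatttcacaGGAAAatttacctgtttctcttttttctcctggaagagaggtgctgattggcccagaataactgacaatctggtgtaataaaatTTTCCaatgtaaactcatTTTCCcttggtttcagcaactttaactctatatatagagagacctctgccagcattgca
The Il5 run held 1 GATA match, AGATAG on the minus strand from position -72 to -67 counted from the start, and 2 GGAAA matches. The Il13 run held AGATAA from -81 to -76 and 4 GGAAA matches. The Il4 run held no GATA match and 5 GGAAA matches. Windows that also take in the 50 bases from the start on were searched in full, and there Il4 had TGATAA from 15 to 20. Of the 5 genes, 4 had a window in the table. A second Il4 window, chr11:53617289-53617588, held TGATAG and 1 GGAAA, and that of Kif3a, chr11:53567119-53567418, held no GATA match and 1 GGAAA. Of all 32851 mouse windows of this length, 29.8% held at least 1 of the GATA motifs and 61.3% held GGAAA. The AP-1 motif TGANTCA (N for any base) was in none of the windows of these genes and in 7.81% of all windows. The run TGCTGAC, which MAF factors read, was also in none of them and in 4.67% of all. A match of so few letters is a description and not a bound site.

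Anti-TCR mAb raised all 3 cytokine genes in both cultures, by 63.1-fold or more, while Rad50 and Kif3a stayed within 2-fold. In Th2-1st control cells 3 of the 5 passed 2-fold upwards, Il4, Il5 and Il13, where 17.5% of all genes and 10.4% of bright genes did. In Th2-4th control cells the same 3 genes passed it, against 18.7% of all genes and 14.2% of bright genes. In the limma fit over both cultures the shared log2 ratio was 6.04 for Il4 (SE 0.18, adjusted p = 5.24e-06), 6.68 for Il5 (SE 0.54, adjusted p = 0.000317) and 10.04 for Il13 (SE 0.58, adjusted p = 8.28e-05), where 8.99% of all genes were called higher and 14.1% lower at an adjusted p under 0.05. Rad50 was called lower in that fit (-0.66, SE 0.16, adjusted p = 0.0228) and Kif3a was not called (-0.33, SE 0.18, adjusted p = 0.259).

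Il5, the eosinophil growth factor gene, read 163 in control Th2-1st cells without stimulation, 26465 with anti-TCR mAb and 909 after anti-TCR mAb with GATA3 siRNA. In Th2-4th cells it read 696, 44721 and 10857 in the same order. It was thus high on both stimulated control arrays, intermediate in stimulated Th2-4th cells with GATA3 siRNA and low on the other 3 arrays. The rise with anti-TCR mAb was 162-fold in Th2-1st cells (log2 ratio 7.34, spread 0.76) and 64.3-fold in Th2-4th cells (log2 ratio 6.01, spread 0.64). Ordered by level, neighbouring arrays differed beyond their spread except for GATA3 siRNA stimulated Th2-1st cells (909) and unstimulated Th2-4th control cells (696), which differed by 0.38 on the log2 scale where genes with similar signals had a spread of 1.10.

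Il13, the gene of the cytokine of airway mucus and hyperreactivity, read 16.9, 15757 and 1506 in unstimulated, stimulated and GATA3 siRNA stimulated Th2-1st cells. In Th2-4th cells it read 29.7, 35292 and 18108. Both unstimulated signals lay below the array median, so the size of the rise rests on signals near background. As measured, the log2 ratio was 9.86 in Th2-1st cells and 10.22 in the Th2-4th cells, and 7.98 and 8.89 once any signal under the array median was set to that median. Il13 ranked 10th and 5th from the top among bright genes in these comparisons. In the order of levels, 2 neighbouring pairs stayed within the spread. These were the unstimulated arrays of both cultures, and GATA3 siRNA stimulated Th2-4th cells beside stimulated Th2-1st control cells.

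Il4, the gene of the signature Th2 cytokine, read 504 in control Th2-1st cells without stimulation, 34734 with anti-TCR mAb and 38027 after anti-TCR mAb with GATA3 siRNA. In Th2-4th cells it read 729, 45980 and 38284. All 4 stimulated arrays were high and both unstimulated arrays were low, whatever the siRNA. The rise in control cells was 68.98-fold in Th2-1st cells (log2 ratio 6.11, spread 0.63) and 63.1-fold in Th2-4th cells (log2 ratio 5.98, spread 0.64). On the 4 stimulated arrays Il4 stood at 73.0% to 78.3% of the signal of the brightest probe set and ranked between 32nd and 58th of 45101 probe sets. Whether such signals are compressed near the top of the scale was not tested.

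Rad50, a DNA repair gene whose product works in the MRE11 complex at double-strand breaks, read 1857, 1142 and 750 in the Th2-1st cells and 1852, 1210 and 940 in the Th2-4th cells by its brighter probe set. It was highest on both unstimulated arrays and lowest on both GATA3 siRNA arrays. The log2 ratio with anti-TCR mAb was -0.70 in Th2-1st cells and -0.61 in the Th2-4th cells, both within the spreads of 0.73 and 0.95. Its other probe set read between 25.3 and 40.5 on all 6 arrays, below the array medians.

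Kif3a, the gene of a motor subunit of kinesin-2 that carries cargo in cilia and axons, read 1370, 1124 and 661 in the Th2-1st cells and 1198, 925 and 766 in the Th2-4th cells by its brightest probe set. Like Rad50 it was highest without stimulation and lowest with GATA3 siRNA in each culture. The log2 ratio with anti-TCR mAb was -0.28 and -0.37, and all 4 of its probe sets were lower after stimulation in both cultures. For Rad50 and Kif3a alike, all neighbouring arrays in the order of levels differed by less than the spread, the Kif3a pair of stimulated Th2-4th arrays (925 and 766) by the least margin, at 0.27 against 0.28.

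**Figure D1:**
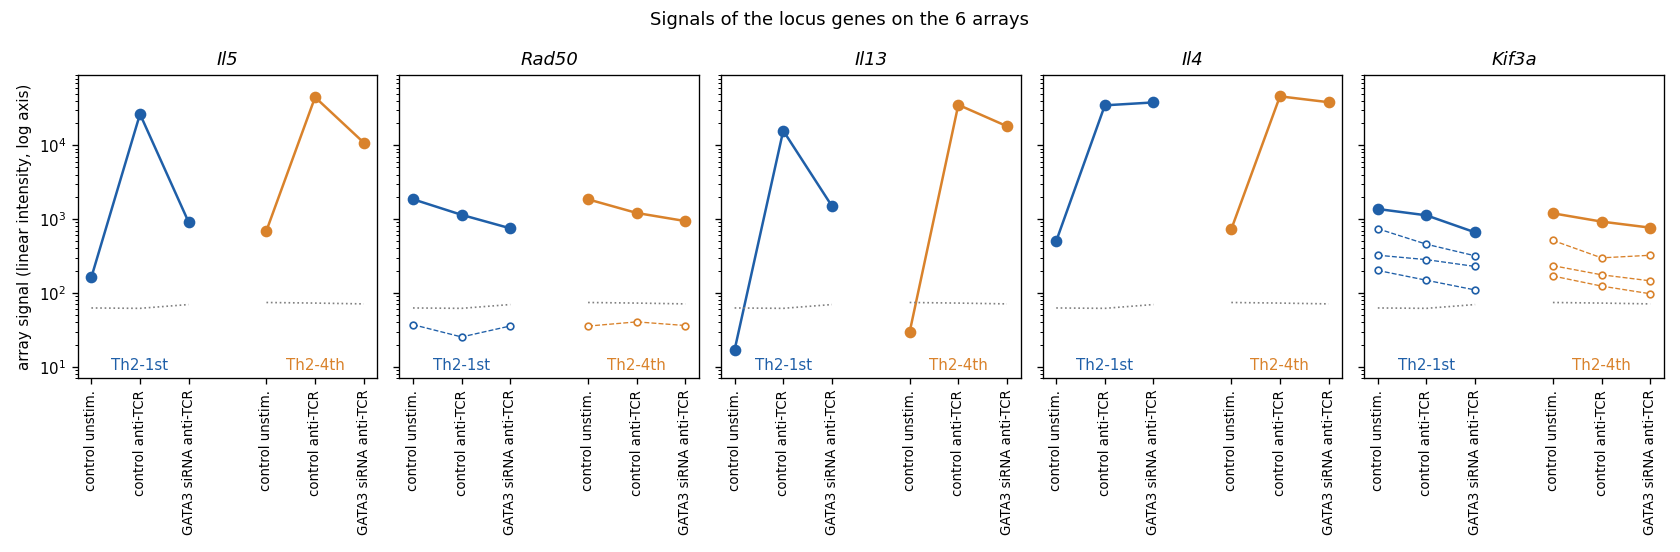
Signal of each probe set (vertical axis, linear intensity on a log axis) on the 6 arrays, with Th2-1st cells in blue and Th2-4th cells in orange. Filled points are the probe set that stands for the gene, open points are the other probe sets, the dotted line is the array median, and each point is 1 array without an error bar. Il5 and Il13 read lower in stimulated GATA3 siRNA cells than in stimulated control cells, while Il4 stays between 34734 and 45980 on all stimulated arrays.

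With GATA3 siRNA Il5 read under 0.5-fold in both cultures, Il13 in Th2-1st cells alone, and Il4 stayed within 2-fold in both. In stimulated Th2-1st cells 2 of the 5 genes were under 0.5-fold, Il5 and Il13, against 7.49% of all genes and 0.908% of the 5948 bright genes. In stimulated Th2-4th cells 1 was under 0.5-fold, Il5, against 10.6% of all genes and 1.11% of the 6030 bright genes. In the limma fit over both cultures none of the 5 genes passed an adjusted p of 0.05. The shared log2 ratio was -3.45 for Il5 (SE 0.54, adjusted p = 0.216), -2.18 for Il13 (SE 0.58, adjusted p = 0.566) and -0.07 for Il4 (SE 0.18). Rad50 stood at -0.49 (SE 0.16, adjusted p = 0.75) and Kif3a at -0.52 (SE 0.18, adjusted p = 0.789). Of all genes that fit called 7 lower (0.0385%), Gata3 among them (-1.57, SE 0.16, adjusted p = 0.0426), and 0 higher. At an unadjusted limma p under 0.05 it held 396 lower and 618 higher of 18194 genes. That is near the number such a cut-off gives with no real change. Il5, Il13, Rad50 and Kif3a were among the lower, and a place there is not a call.

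For Il5, GATA3 siRNA left 3.43% of the stimulated control signal in Th2-1st cells (log2 ratio -4.86, spread 0.16), the lowest ratio among the 5948 bright genes there. In Th2-4th cells it left 24.3% (log2 ratio -2.04, spread 0.20), the 11th lowest of 6030. Of the 5518 genes that were bright in both knockdown pairs, 26 were under 0.5-fold in both cultures, and Il5 was among them. No array is shared between these pairs.

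For Il13, 9.55% of the control signal remained in Th2-1st cells (log2 ratio -3.39, spread 0.16), the 4th lowest ratio of the bright genes. In Th2-4th cells 51.3% remained (log2 ratio -0.96, spread 0.20), which is just short of the 2-fold threshold and the 78th lowest of the bright genes. By qRT-PCR, another measure, the paper counted Il13, and Il5 as well, as lowered past 3.16-fold in both cultures. By that measure it also reported that both genes depended less on GATA3 in Th2-4th cells, by more than 2-fold.

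For Il4, the signal with GATA3 siRNA was 109% of control in Th2-1st cells (log2 ratio 0.13, spread 0.12) and 83.3% in Th2-4th cells (log2 ratio -0.26, spread 0.20). The sign in Th2-1st cells depended on the scaling, since centring each array on its median gave -0.04 and quantile normalization 0.01. Quantile normalization gave -0.04 in Th2-4th cells. By qRT-PCR, another measure, the paper reported lower Il4 RNA with GATA3 siRNA in both cultures. The array ratios of Il4 rest on signals near the top of the scale.

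Rad50 stood at 65.7% of control in Th2-1st cells (log2 ratio -0.61, spread 0.21) and at 77.7% in Th2-4th cells (log2 ratio -0.36, spread 0.28), beyond the spread in both and within 2-fold. Its other probe set, below the array medians, gave 0.49 and -0.16. Kif3a stood at 58.8% in Th2-1st cells (log2 ratio -0.77, spread 0.21) and at 82.8% in Th2-4th cells (log2 ratio -0.27, spread 0.28). The other Kif3a probe sets gave between -0.52 and -0.31 in Th2-1st cells and between -0.34 and 0.12 in Th2-4th cells, so that all 4 were lower in Th2-1st and 3 of 4 in Th2-4th cells.

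The knockdown ratios of the 2 cultures were then compared with each other. For Il5 the log2 ratio was higher in Th2-4th cells by 2.82, a 7.07-fold smaller loss, where genes with similar signals had a spread of 0.23. For Il13 the difference was 2.42, or 5.37-fold, with a spread of 0.26. These were the 2 of the 5 genes past 2-fold in this difference, against 11.9% of all genes and 0.983% of 7323 genes with a signal of at least 500 on any array. Among the latter they ranked 2nd and 5th from the top. For Kif3a the difference was 0.49, for Rad50 0.24 and for Il4 -0.39. Gata3 itself had log2 ratios of -1.44 in the Th2-1st and -1.70 in the Th2-4th cells, and with GATA3 siRNA it read 1798 and 2853. How far the remaining Gata3 signal bears on the difference between the cultures was not tested. In stimulated Th2-4th control cells Il5 stood at 76.1% and Il13 at 60.1% of the signal of the brightest probe set. The bearing of such high signals on these differences was not tested either.

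**Figure D2:**
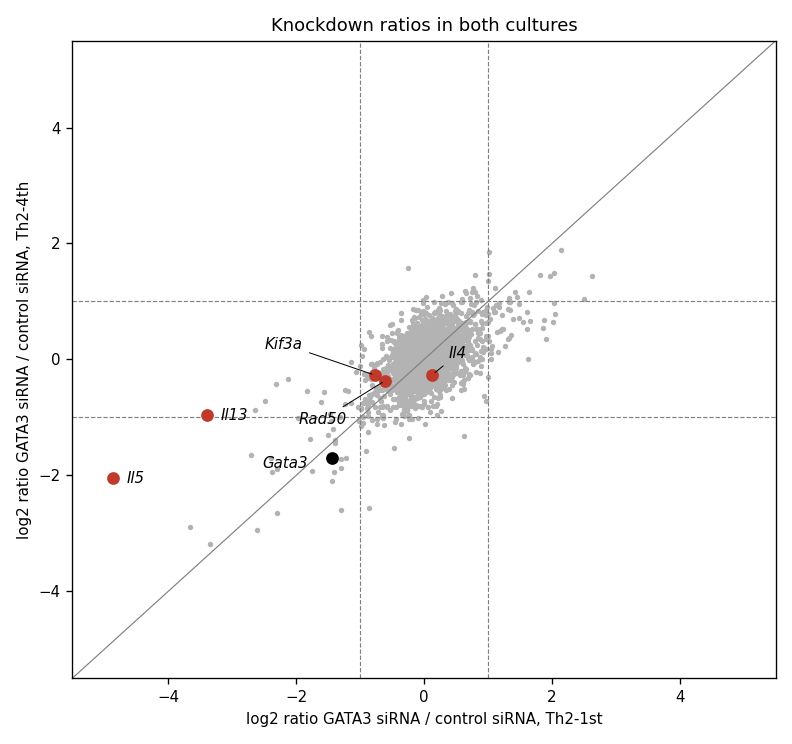
Log2 ratio of GATA3 siRNA to control siRNA in stimulated Th2-4th cells (vertical axis) against the same ratio in stimulated Th2-1st cells (horizontal axis), 1 grey point for each of 5518 genes that were bright in both pairs. Red points are the 5 locus genes, the black point is Gata3, dashed lines mark 2-fold and the diagonal marks equal ratios. Il5 (-4.86 and -2.04) and Il13 (-3.39 and -0.96) lie far above the diagonal, and Il4, Rad50 and Kif3a lie inside the dashed lines.

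Stimulated cells with GATA3 siRNA can also be set against unstimulated control cells, although those arrays differ in siRNA as well as in stimulation. In Th2-1st cells Il5 was then 5.58-fold above the unstimulated control and Il13 88.9-fold. In Th2-4th cells Il5 was 15.6-fold and Il13 610.2-fold above it. Both genes therefore read above their unstimulated control signal in the presence of GATA3 siRNA, the Il13 folds again over signals below the array median. Il4 was 75.5-fold and 52.5-fold above it. Rad50 read 0.404 and 0.508 of its unstimulated signal and Kif3a 0.482 and 0.639.

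Unstimulated Th2-4th cells read 4.27-fold more Il5 than unstimulated Th2-1st cells (log2 ratio 2.10, spread 0.68). It was the only one of the 5 genes past 2-fold, against 19.5% of all genes and 9.61% of bright genes over 2-fold in this comparison. The log2 ratio was 0.53 for Il4, 0.81 for Il13, -0.0045 for Rad50 and -0.19 for Kif3a, each within its spread. After anti-TCR mAb only Il13 was past 2-fold, at 2.24-fold more in Th2-4th cells (log2 ratio 1.16, spread 0.48), against 17.2% of all genes and 7.92% of bright genes. This call was lost when arrays were centred on their median (log2 ratio 0.93) or quantile normalized (0.99). Il5 stood at 0.76 beyond a spread of 0.48, Il4 at 0.40 within it, Rad50 at 0.08 and Kif3a at -0.28. The B cell gene Ighm, the heavy chain of IgM, moved with the culture as well, from 5856 to 693 without and from 5964 to 76.8 with stimulation, while Cd79a, the signalling chain of the B cell receptor, stayed at 13.95 or less on all arrays. Markers of CD4 T cells moved too, with Cd4 at 2.63-fold and Cd3g at 2.26-fold higher in Th2-4th cells without stimulation, and at 2.55-fold and 3.12-fold with it. The median log2 ratio of the 6 measured was 0.92 without and 0.80 with stimulation (all genes 0.17 and 0.10). The part of B cell and T cell transcripts in the culture comparison was not tested.

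The rise with anti-TCR mAb was itself compared between cultures. For Il5 the difference of the log2 ratios, Th2-4th minus Th2-1st, was -1.34 (6.01 and 7.34, spread of the difference 0.45). Il5 was the only one of the 5 genes past 2-fold downwards in this difference, against 17.6% of all genes and 4.6% of genes with a signal of at least 500 on any array. For Il13 the difference was 0.35, which rests on unstimulated signals below the array median (the ratios were 7.98 and 8.89 with those raised to it). For Il4 it was -0.13, and for Rad50 and Kif3a 0.09 and -0.09. Between the cultures, Il5 differed by 4.27-fold in unstimulated and by 1.69-fold in stimulated control cells. The Il5 signal of stimulated Th2-4th control cells lay near the top of the scale, and its bearing on these Il5 differences was not tested.

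**Figure D3:**
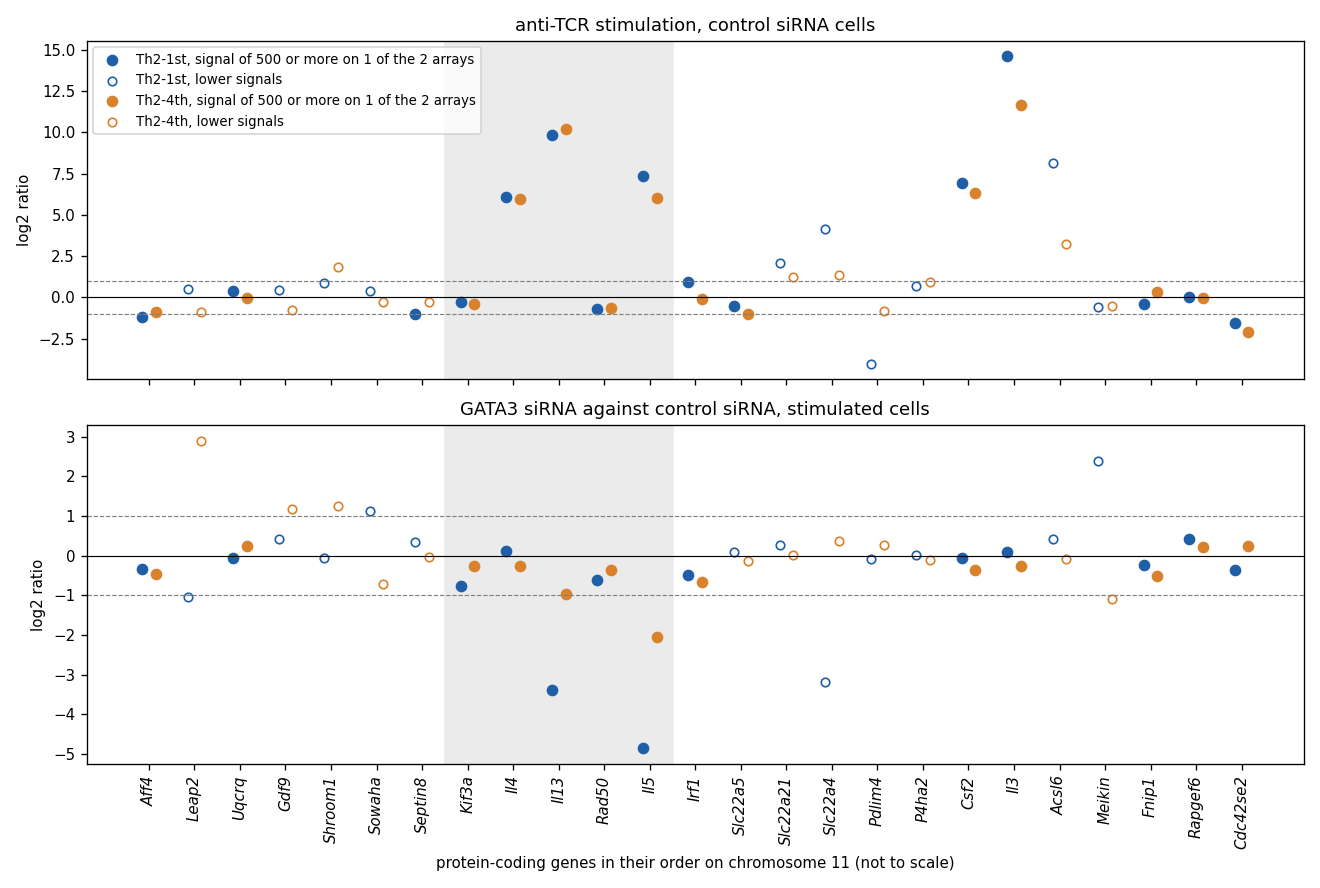
Log2 ratios of 25 genes in their order on chromosome 11 (horizontal axis, not to scale) for anti-TCR stimulation of control cells (upper panel) and for GATA3 siRNA against control siRNA in stimulated cells (lower panel). Th2-1st cells are blue and Th2-4th cells orange, filled points are genes with a signal of at least 500 on 1 of the 2 arrays, dashed lines mark 2-fold and the grey band covers the 5 locus genes. In the lower panel Il5 in both cultures and Il13 in Th2-1st cells are the filled points below -1.

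The genes on both sides of the locus were read from a list of 19 neighbours, from Aff4 to Cdc42se2, all of which were measured. With anti-TCR mAb 5 were over 2-fold and 4 under 0.5-fold in Th2-1st cells (median log2 ratio 0.43, all genes -0.01), and 6 and 2 in Th2-4th cells (median -0.06, all genes -0.10). Of all genes 17.5% were over and 16.9% under in Th2-1st cells, and 18.7% and 21.6% in the Th2-4th cells. The other cytokine genes of this stretch, Csf2 (GM-CSF) and Il3 (a growth factor of mast cells and basophils), were over 2-fold with anti-TCR mAb in both cultures and within 2-fold with GATA3 siRNA. Csf2 read 254, 31614 and 30173 in unstimulated, stimulated and GATA3 siRNA stimulated Th2-1st cells, and 510.4, 41681 and 32201 in the Th2-4th cells. Its log2 ratio with GATA3 siRNA was -0.07 and -0.37. Il3 read 1.75, 44252 and 47138 in the Th2-1st cells and 17.4, 55479 and 46439 in the Th2-4th cells, with unstimulated signals below the array medians. Both genes were high on all 4 stimulated arrays, GATA3 siRNA or not. Irf1, the transcription factor gene next to Il5, had log2 ratios of -0.48 and -0.67 with GATA3 siRNA.

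With GATA3 siRNA 1 of the 19 neighbours was over 2-fold and 2 were under 0.5-fold in Th2-1st cells, and 3 were over and none was under in Th2-4th cells. Of all genes 13.3% were over and 7.49% under in Th2-1st cells, and 10.6% were over and 10.6% under in the Th2-4th cells. All of the 19 past 2-fold had signals below 500 on both arrays of the pair. The figure also holds Meikin, which lies in this stretch and was not on the list. Its log2 ratio with GATA3 siRNA was 2.40 in Th2-1st and -1.10 in the Th2-4th cells, also at signals below 500. Of the 8 bright neighbours none was past 2-fold in either culture. The median log2 ratio of the 19 genes was -0.06 in Th2-1st cells, where that of all genes was 0.05, and -0.03 in Th2-4th cells, where that of all genes was 0.01.

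The molecules that read or control the locus were also listed. Of 15 genes of the receptors of IL-4, IL-5 and IL-13 and their signalling, 14 were measured. With anti-TCR mAb 4 were over 2-fold and 3 under 0.5-fold in Th2-1st cells, and 4 and 1 in the Th2-4th cells (medians 0.12 and 0.43, where those of all genes were -0.01 and -0.10). The shares over 2-fold among all genes were 17.5% and 18.7%, and those under 0.5-fold were 16.9% and 21.6%. Jak2, a kinase of the IL-5 receptor, had log2 ratios of 2.40 and 2.36 and Stat5a, a transcription factor downstream of it, 2.08 and 2.53. Il4ra, the chain shared by the receptors of IL-4 and IL-13, read 1749 without and 816 with anti-TCR mAb in Th2-1st cells (log2 ratio -1.10). In Th2-4th cells it read 1543 and 1156, within 2-fold and within the spread (log2 ratio -0.42, spread 0.95). Il5ra, the chain that binds IL-5, lay at 36.3 or less on all 6 arrays. With GATA3 siRNA 1 was over 2-fold and 1 under 0.5-fold in Th2-1st cells and 2 were over in Th2-4th cells, none of them bright (medians 0.22 and -0.05). Among all genes 13.3% were then over and 7.49% under in Th2-1st cells, and 10.6% each way in the Th2-4th cells.

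Of 35 genes for transcription factors and chromatin regulators of the locus, 34 were measured. With anti-TCR mAb 6 were over 2-fold and 3 under 0.5-fold in Th2-1st cells (median log2 ratio -0.17, all genes -0.01), and 11 and 4 in Th2-4th cells (median 0.45, all genes -0.10). The 6 of 34 over 2-fold in Th2-1st cells are near the 17.5% of all genes, and in Th2-4th cells 18.7% of all genes were over. Under 0.5-fold were 16.9% of all genes in Th2-1st cells and 21.6% in the Th2-4th cells. The AP-1 genes Fos and Junb were over 2-fold in both cultures, with log2 ratios of 3.56 and 2.18 in the Th2-1st cells and 5.49 and 2.40 in the Th2-4th cells. Sox4 read 198 without and 1302 with anti-TCR mAb in Th2-1st cells (log2 ratio 2.72). Tbx21, the gene of the Th1 factor T-bet, had log2 ratios of 1.43 and 2.82, and the related Eomes had 2.95 in the Th2-4th cells. Maf, an activator of Il4, read 4572, 7931 and 6664 in unstimulated, stimulated and GATA3 siRNA stimulated Th2-1st cells and 8265, 11515 and 12714 in the Th2-4th cells. With GATA3 siRNA 1 was over 2-fold and 2 were under 0.5-fold in Th2-1st cells and 1 was under in Th2-4th cells (medians -0.04 and -0.03). The shares of all genes were 13.3% over and 7.49% under in Th2-1st cells, and 10.6% each way in the Th2-4th cells. Among the bright ones of the list only Gata3 was past 2-fold. Between the cultures after stimulation, the DNA methyltransferase gene Dnmt1 had a log2 ratio of -1.64, Sox4 of -1.47, the Polycomb gene Ezh2 of -1.32 and the NFAT gene Nfatc1 of 1.40, as Th2-4th over Th2-1st.

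The partners of the products of Rad50 and Kif3a were read beside them. Of 6 genes of RAD50's partners in double-strand break repair 5 were measured, and none was past 2-fold with GATA3 siRNA in either culture (medians -0.11 and -0.05, where Rad50 stood at -0.61 and -0.36). All 4 genes of KIF3A's partners in kinesin-2 motors were measured, and none was past 2-fold with GATA3 siRNA (medians 0.18 and 0.16, where Kif3a stood at -0.77 and -0.27). Shares of all genes were 13.3% over and 7.49% under in Th2-1st cells, and 10.6% each way in the Th2-4th cells. Lists this short can hold none at such shares. With anti-TCR mAb the kinesin-2 linker gene Kifap3 had log2 ratios of -1.90 and -2.27.

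Genes whose pattern was most like that of each cytokine gene were found among 7323 genes with a signal of at least 500 on any array, by the root mean square difference of the log2 signals over the 6 arrays after taking off each gene's mean. The 6 arrays share control arrays between comparisons, so this is a description. The nearest to Il4 were Csf2 at 0.29, Trib1 at 0.31, Slc13a3 at 0.36, Timp1 at 0.37 and Sema7a at 0.39. The nearest to Il5 were farther, with Stfa3 at 1.004, Il6 at 1.24, Tpbg at 1.26, Egr1 at 1.37 and Gem at 1.40. The nearest to Il13 were Stfa2l1 at 0.74, Olr1 at 0.86, Il6 at 0.99, Plek at 1.28 and Ifng at 1.33. Il6 read 10942 with control and 863 with GATA3 siRNA in stimulated Th2-1st cells and 45438 and 6104 in the Th2-4th cells. The 3 cytokine genes of the locus were not among each other's 5 nearest genes, at 1.85 between Il4 and Il5, 1.95 between Il4 and Il13 and 2.00 between Il5 and Il13. They still ranked high among the 7323 genes. Il4 and Il5 were 31st and 32nd nearest to Il13, Il4 and Il13 57th and 92nd to Il5, and Il5 and Il13 235th and 280th to Il4. Unstimulated signals of Il13, Trib1, Slc13a3, Stfa3, Tpbg, Stfa2l1, Olr1 and Ifng lay below the array medians in both cultures. Those of Timp1, Il6 and Plek lay below the median in Th2-1st cells alone. Such low signals limit these distances. With Pearson's correlation as the measure of likeness, 1 of the 5 nearest genes of Il4, Csf2, was the same, and none of those of Il5 or Il13.

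**Figure D4:**
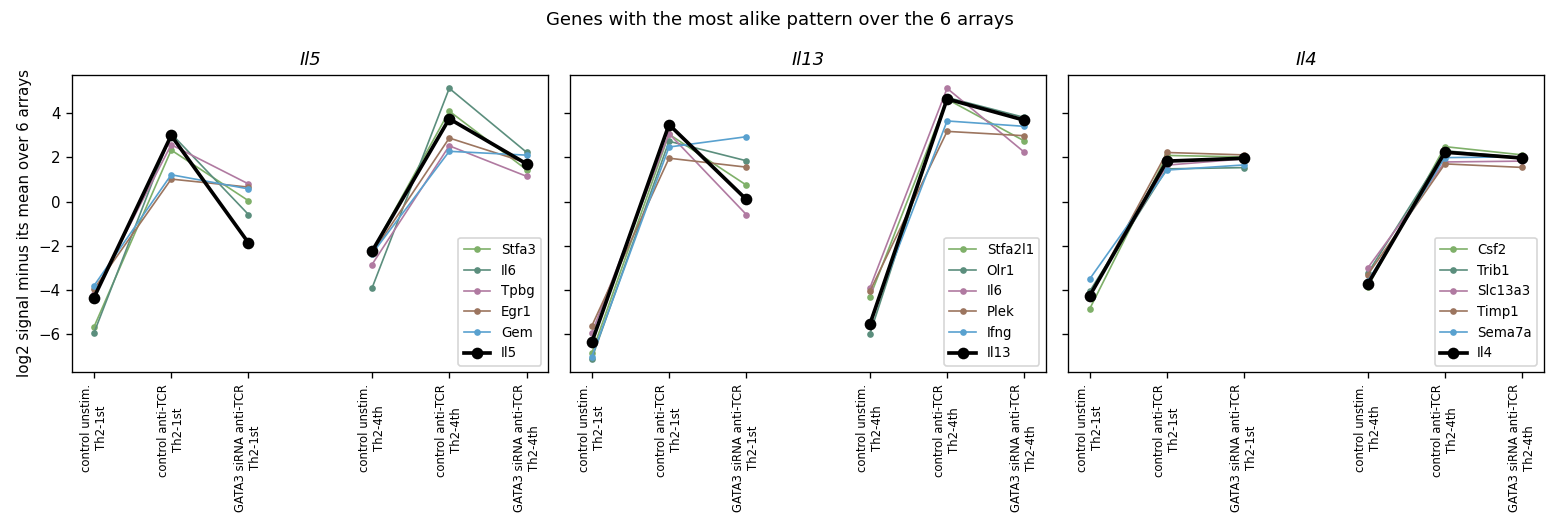
Log2 signal minus its mean over the 6 arrays (vertical axis) on each array (horizontal axis) for Il5, Il13 and Il4 (black) and the 5 genes with the smallest root mean square difference from each (coloured). The genes around Il4 stay high with GATA3 siRNA, and of those around Il5 none is as far below its stimulated control as Il5 is in Th2-1st cells.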

How the data were processed

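The authors hybridised RNA of 6 samples, 1 per condition, to Affymetrix mouse genome arrays and deposited linear signal intensity values, 1 for each probe set. Per the labels these came from the Affymetrix Expression Console. Its algorithm, version and background correction were not given in the sources used here. The deposited intensity values had a mean of 500.0 on every array when the lowest and highest 2% of probe sets were left out, so the arrays had already been scaled. The number of arrays limits the precision, and no detection call or scanner file was used.

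Of 45101 probe sets, 34958 were paired with 1 gene by the platform annotation, 932 with several and 9211 with none, and 34754 of the first (99.4%) matched the RefSeq mouse gene table. They gave 18194 genes, each read by its brightest probe set on average over the log2 signals. Log2 ratios were taken between pairs of arrays in 6 comparisons. The spread was 1.4826 times the median absolute deviation of log2 ratios in 20 bins of mean signal. The stimulation and knockdown ratios of a culture share its stimulated control array. A limma fit (version 3.58.1, R 4.3.3) of the log2 signals over the 6 arrays, with culture and condition as terms and a variance trend, was added after the data were seen, with Benjamini-Hochberg adjustment over all genes. The thresholds of 2-fold and 0.5-fold follow the paper, and the counting and the fit were tested on simulated data. By rule, genes named beyond the 5 of the locus were Gata3, the nearest genes by pattern, and bright members of a list past 2-fold, at most 4 for each comparison. Not all such members are named, and others (cytokine, receptor and marker genes, Irf1 and Maf) were named after their values were seen.

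The members, the gene lists (wider region, receptors, regulators, partners, and markers of CD4 T, Th2, mast and related, B, myeloid, and CD8 T, NK and NKT cells) and the alternatives were chosen with earlier results of these data known. The alternatives averaged all probe sets of a gene, took the probe set of largest ratio, or dropped probe sets open to cross-hybridisation. Others were median centring, quantile normalization, raising low signals to the array median, and a threshold of 3.16-fold. Promoter windows (250 bases before and 50 from the RefSeq start, GRCm38.p6) came from a RefSeq table. Python 3.11.15 with numpy 2.4.6, pandas 2.3.3, scipy 1.17.1 and matplotlib 3.10.9 was used.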

Additional observations from a re-analysis of the deposited data

Results flagged for a closer look

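In 4 cases the 2 cultures gave ratios of opposite sign for the same contrast, each with 1 array pair per culture, and none of these differences was tested. The dim Rad50 probe set, below the array medians on all arrays, had log2 ratios with anti-TCR mAb of -0.55 in Th2-1st and 0.19 in the Th2-4th cells, and with GATA3 siRNA of 0.49 and -0.16. Il4 had log2 ratios with GATA3 siRNA of 0.13 in Th2-1st and -0.26 in the Th2-4th cells, a difference of -0.39 where genes with similar signals had a spread of 0.21. This depended on the scaling. Median centring gave -0.04 and -0.23, of like sign, and quantile normalization gave 0.01 and -0.04. The second brightest Kif3a probe set had -0.52 in Th2-1st and 0.12 in the Th2-4th cells, while its brightest was negative in both. All of these ratios lay within 2-fold.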

How the results depend on the processing

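The ratios of the 5 genes in the 6 comparisons were recomputed under 6 settings within each culture, which gave 180 values. Of these, 169 moved by less than the spread of genes of like signal, 11 moved by more, and no ratio past 2-fold changed sign. Many of the 180 could not move. Il4, Il5 and Il13 have 1 probe set each, so the choice or averaging of probe sets cannot change them. Dropping probe sets left all 30 values as they were, and raising low signals reached only Il13. The 169 are thus no measure of robustness. The count of locus genes past 2-fold between stimulated Th2-4th and Th2-1st control cells, 1 as reported, was 0 with median centring, 0 with quantile normalization and 0 at a threshold of 3.16-fold. Median centring moved the median log2 ratio of all genes by -0.17 in the Th2-1st knockdown, by -0.25 between unstimulated and by -0.24 between stimulated cultures, and quantile normalization moved it by -0.15 between unstimulated cultures. The Il5 knockdown ratio was then -5.03 in Th2-1st cells with centring and -1.83 in Th2-4th cells with quantile normalization. Averaging the probe sets of a gene, which brings in the dim Rad50 probe set, gave Rad50 -0.06 and Kif3a -0.51 in the Th2-1st knockdown. Dropping probe sets open to cross-hybridisation removed none of the locus genes' probe sets. With the culture as a replicate block, a limma fit added after the data were seen, the 3 cytokine genes kept their call with anti-TCR mAb, and the knockdown ratio of Il5 was -3.45 (adjusted p = 0.216) and that of Il13 -2.18 (adjusted p = 0.566). No replicate could be left out within a culture, since each condition has 1 array there. Signals below the array median, as of Il13 without stimulation, limit how far their ratios can be read. So do signals near the top of the scale, those of stimulated Il4, Csf2 and Il3 and of Il5 and Il13 in stimulated Th2-4th control cells.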
